A study of Mus musculus with 6 samples.

Results

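Very long genes were taken here as the RefSeq protein-coding genes on mouse chromosomes 1 to 19 that span 500 kb or more from annotated start to end. Of 20665 protein-coding genes on these chromosomes, 216 reach that length. The Arhgap, Arhgef, Fox, Slit, Robo, Pde4, Adamts, Col and Fgf families and the genes Rora and Esrrg were not counted, which removed 15, so 201 genes remained (0.973% of the total). Their lengths ran from 501.8 kb to 2271 kb with a median of 739.9 kb, against a median of 17.5 kb over all protein-coding genes, and 52 exceeded 1 Mb. Together they cover 168 Mb, against 804 Mb for the 20449 genes under 500 kb. The length rule used no ChIP value.

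Runx1 is a DNA-binding transcription factor that pairs with Cbfb and recognises a short core sequence, TGTGGT or TGCGGT. It can bind near gene starts and at distal elements, many of which lie inside introns. Genes of this size consist mostly of intron, so their bodies hold room for many such elements, and many of them encode adhesion molecules, channels and scaffolds best known from neurons. Several are common fragile site genes in human cells, where late or slow replication of a long transcribed gene is linked to breaks. A smaller number, such as Nfia, Lpp, Rbms3 and Mecom, are known from mesenchymal cells.

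The libraries were Runx1 chromatin immunoprecipitations (ChIP) from GFP+ lung fibroblasts of Col1a2-CreERT2;mTmG mice. In all groups the Cre is driven by Col1a2 sequences and switches a membrane reporter to green, so the cells are defined by past Col1a2-driven recombination. Fibroblasts came from sham-injured lungs (sham), and from lungs 14 days (D14) and 56 days (D56) after intratracheal bleomycin, which injures the lung and brings on fibrosis. Each condition had 1 ChIP library and 1 input, the sources used here do not say how many mice stand behind each, and no p-values are given because there were no replicates.

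On chromosomes 1 to 19 the peak lists held 24611 (sham), 55378 (D14) and 14704 (D56) peaks, from 48816721, 78744701 and 49669125 ChIP tags. The inputs held 39609538 sham, 49312043 D14 and 19949187 D56 tags, so the D56 calls rest on the shallowest input and the D14 calls on the deepest pair. Depth moves with any excess of D14 peaks, and values at equal list length are given beside the results they touch. Intervals are 95% and cover counting error only. Peak lists carry no RNA level, so the fibroblast label could not be checked by expression. Of 8 marker genes each, a peak summit fell in the body of 4 fibroblast, 4 endothelial, 0 epithelial and 1 immune gene in sham, of 6, 7, 3 and 3 at D14, and of 2, 4, 0 and 0 at D56. Over all protein-coding genes the share was 34.5% in sham, 51.7% at D14 and 26.0% at D56. Endothelial genes were met as often as fibroblast genes or more often in each library, so these counts cannot check the label either.

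Runx1 peaks were sparse along very long genes in all 3 libraries. In sham, 458 peak summits lay in their bodies, which is 0.272 peaks per 100 kb (0.248 to 0.298), against 1.49 per 100 kb in genes under 500 kb. At D14 the count was 1518 peaks or 0.902 per 100 kb (0.857 to 0.948), against 3.41 in shorter genes. At D56 it was 193 peaks or 0.115 per 100 kb (0.0991 to 0.132), against 0.854. The density in very long genes was thus 0.183, 0.265 and 0.134 times that of shorter genes in sham, D14 and D56. Very long genes held 1.86%, 2.74% and 1.31% of all peaks in the 3 lists.

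The shortfall held, at a smaller size, with gene ends left out. With the 10 kb at each end left out, very long genes held 0.823 peaks per 100 kb at D14, against 2.32 in the interiors of shorter genes of 20 kb or more. The interior D14 density was flat over the shorter classes, at 2.50 in genes of 20 to 50 kb, 2.31 at 50 to 100 kb, 2.47 at 100 to 200 kb and 2.61 at 200 to 300 kb. It was lower above that, at 1.98 in genes of 300 to 400 kb and 1.62 at 400 to 500 kb. Within very long genes it was 1.31 at 500 to 750 kb, 0.652 at 750 kb to 1 Mb and 0.517 above 1 Mb. The interior densities of the sham and D56 libraries fell off in the same length classes.

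**Figure D1:**
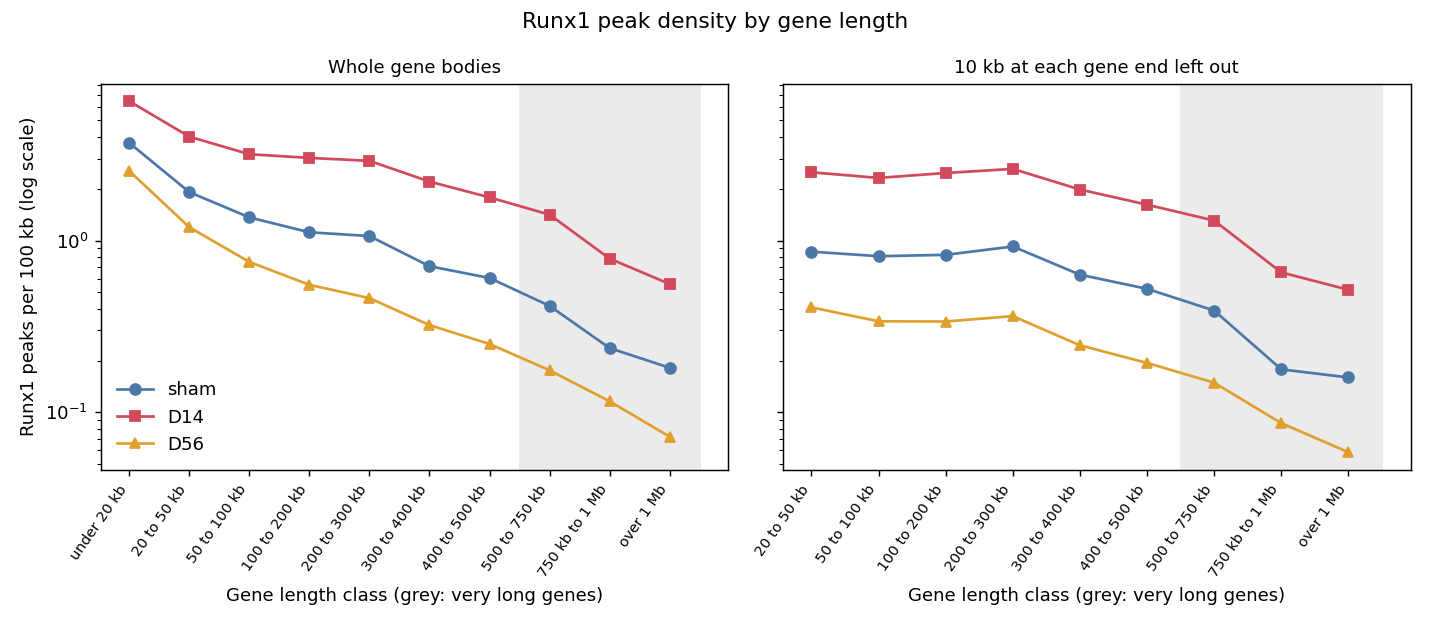
Runx1 peaks per 100 kb of gene body (log scale) by gene length class in the sham, D14 and D56 libraries, over whole bodies on the left and with 10 kb at each gene end left out on the right. Very long genes are shaded grey; at D14 their interior density is 1.31, 0.652 and 0.517 per 100 kb in the 3 longest classes, against 2.61 in genes of 200 to 300 kb.

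Most very long genes nevertheless held a peak. In sham 112 of the 201 did (55.7%), against 34.5% of all protein-coding genes. At D14 it was 174 (86.6%), against 51.7% of all protein-coding genes. At D56 it was 83 (41.3%), against 26.0%. Genes of 200 to 300 kb reached 66.5%, 88.8% and 52.2% in the same 3 libraries, so shares at least as high were met in genes well under this length. Peaks in all 3 libraries were found in 79 very long genes, in sham and D14 in 32, at D14 and D56 in 4 and at D14 alone in 59. These patterns are not set here beside those of all protein-coding genes, and the D14 list is the longest. They are therefore not shown to be particular to very long genes. Cadm2, a synaptic adhesion molecule, had a peak in sham alone, and 26 genes had none. With each list limited to its 14704 strongest peaks by p-value, 82 very long genes held a sham peak, 93 a D14 peak and 83 a D56 peak, against 25.8%, 28.8% and 26.0% of all protein-coding genes.

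Peaks were unevenly spread among the 201 genes. The D14 number ran from 0 to 37 per gene with a median of 5, and 35 genes held 50% of the D14 peaks summed over genes. The 10 richest held 20.9% of the D14 peaks, 31.5% of the sham peaks and 34.98% of the D56 peaks, each library with its own 10. The median density per gene was 0.104 peaks per 100 kb in sham, 0.563 at D14 and 0 at D56. Density fell weakly with length inside the group, with a Spearman correlation of -0.25 at D14 over 201 genes. The order of genes was alike in the 3 libraries, with a Spearman correlation of 0.82 between D14 and sham, 0.81 between D56 and sham and 0.73 between D56 and D14. These are descriptions across genes of libraries made from the same kind of cell.

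The densest very long genes included regulators of transcription and RNA. Nfia (chr4:97578066-98118876 in mm10), which encodes a nuclear factor I transcription factor, held 20 sham, 34 D14 and 10 D56 peaks. Its D14 density was 6.29 per 100 kb (4.35 to 8.79). Rbms3 (chr9:116572746-117629913), which encodes an RNA-binding protein, held 19 sham, 37 D14 and 8 D56 peaks along 1057 kb. Both genes were among the densest in every library, and their peaks were strewn along the body rather than gathered at an end. Mecom, a zinc finger transcription factor gene, held 6 sham, 19 D14 and 1 D56 peaks. Auts2, which encodes a nuclear regulator and is also a fragile site gene, held 6 sham, 27 D14 and 5 D56 peaks along 1106 kb.

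Rad51b (chr12:79297282-79848260) had the highest density in sham and at D14, and at D56 it stood below Nfia and Elmo1. It encodes a protein that acts in repair of DNA by homologous recombination. It held 26 sham, 37 D14 and 8 D56 peaks, which at D14 is 6.72 per 100 kb (4.73 to 9.26). Of the 37 D14 peaks 22 met a sham peak. Its D14 number was the smallest multiple of the sham number among the 10 densest genes.

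Signalling and cytoskeletal genes made up most of the other dense members. Cacna1c (chr6:118587240-119197384), the pore subunit of an L-type calcium channel, held 17 sham, 36 D14 and 6 D56 peaks. Frmd4a (chr2:4017650-4614043), a FERM-domain scaffold of epithelial polarity, held 9 sham, 34 D14 and 5 D56 peaks. Nav2, a neuron navigator protein that binds the cytoskeleton, held 9 sham, 32 D14 and 2 D56 peaks. All of these had far more D14 than sham peaks, and D56 numbers below both. Cdk14, a cyclin-dependent kinase that acts in Wnt signalling, held 5 sham, 26 D14 and 1 D56 peaks. Kalrn, a guanine nucleotide exchange factor for small GTPases, held 10 sham, 27 D14 and 3 D56 peaks, and Lpp, a LIM protein of focal adhesions, held 10 sham, 26 D14 and 3 D56 peaks. Elmo1, which works with Dock proteins to activate Rac, differed in its D56 number, with 11 sham, 22 D14 and 9 D56 peaks. Mast4, a microtubule-associated kinase, held 6 sham, 22 D14 and 2 D56 peaks, and Thsd4, which encodes a protein of fibrillin microfibrils, held 4 sham, 19 D14 and 0 D56 peaks. Wwox, an oxidoreductase gene at a fragile site, held 7 sham, 34 D14 and 5 D56 peaks along 913 kb.

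**Figure D2:**
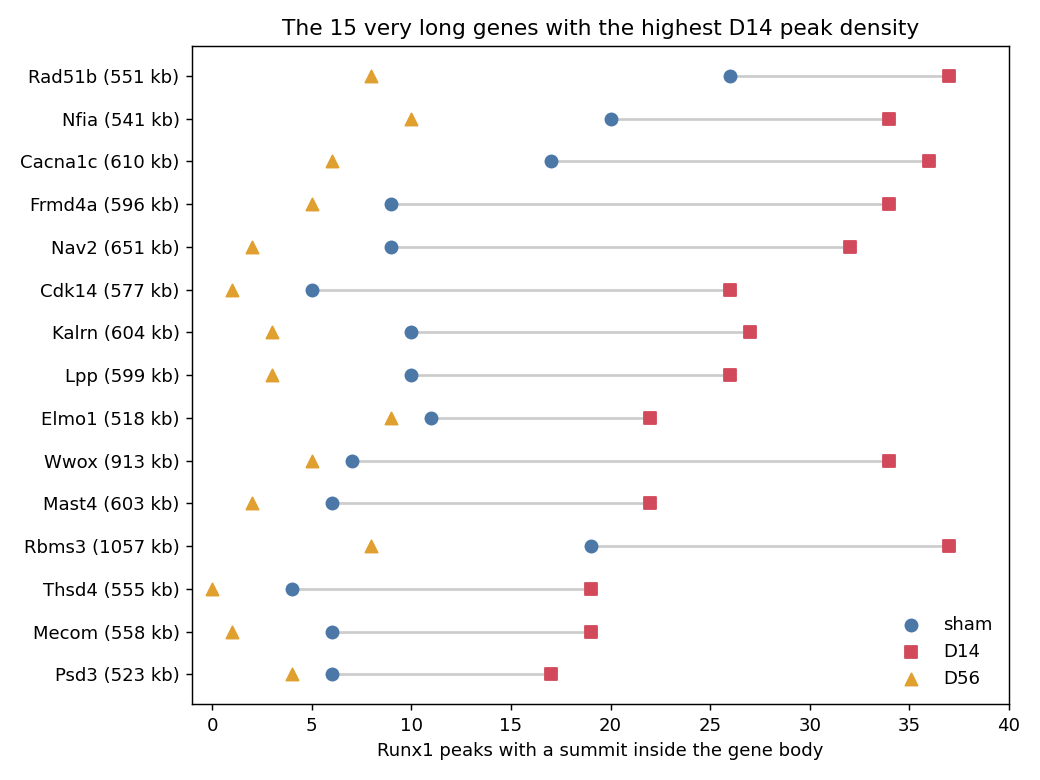
Number of Runx1 peaks with a summit inside the gene body (horizontal axis) for the 15 very long genes with the highest D14 density, in sham, D14 and D56, with gene lengths in brackets. In every one of the 15 the D14 number is the highest of the 3 and the D56 number the lowest; Rad51b shows 26 sham, 37 D14 and 8 D56 peaks and Thsd4 shows 4 sham, 19 D14 and 0 D56 peaks.

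Each of the 10 longest genes held a D14 peak, but peaks were few for their length. Ptprd, a receptor-type phosphatase gene of 2271 kb, held 5 peaks in sham, 12 at D14 and none at D56. Cntnap2, a neuronal adhesion gene of 2241 kb, held 2 sham, 4 D14 and 1 D56 peaks, and Lsamp, a cell adhesion gene of 2197 kb, held 1 sham, 5 D14 and 1 D56 peaks. In these 3 genes stretches of 1043 kb, 1073 kb and 1185 kb carried no peak of any library. Lrp1b, a lipoprotein receptor family gene of 2058 kb, had 1 peak, at D14. Dlg2, a synaptic scaffold, held 2 sham, 6 D14 and 0 D56 peaks, the neurexin gene Nrxn3 held 0 sham, 6 D14 and 0 D56 peaks, Csmd1 held 1 sham, 2 D14 and 0 D56 peaks, and Fhit, a human fragile site gene, held 1 sham, 3 D14 and 0 D56 peaks. Ctnna3, an alpha-catenin gene of 1574 kb, was the fullest of the 10 longest apart from Ptprd, with 3 sham, 10 D14 and 3 D56 peaks.

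Of the 26 genes without a peak, the longest were Csmd3 (1212 kb), the cadherin gene Cdh12 (1150 kb), the neuregulin gene Nrg3 (1108 kb), the neuroligin gene Nlgn1 (911.1 kb) and Dpp6 (910.1 kb), an auxiliary subunit of potassium channels. A count of 0 in Csmd3 allows up to 0.304 peaks per 100 kb in a library by the exact Poisson interval, under the D14 mean of 0.902 over very long genes. Ryr2, the cardiac calcium release channel, and the receptor gene Grik2 were also without a peak. At the length threshold the genes just inside held few or moderate numbers, with 1 D14 peak and none in sham or at D56 in Edil3, 1 sham, 5 D14 and 0 D56 peaks in Dock1 and 3 sham, 10 D14 and 0 D56 peaks in Samd12. Just outside it, Dnm3 at 495.9 kb held 17 sham, 23 D14 and 6 D56 peaks, Lrrc7 held 0 in each and Cacna1e held 2 sham, 6 D14 and 0 D56 peaks.

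**Figure D3:**
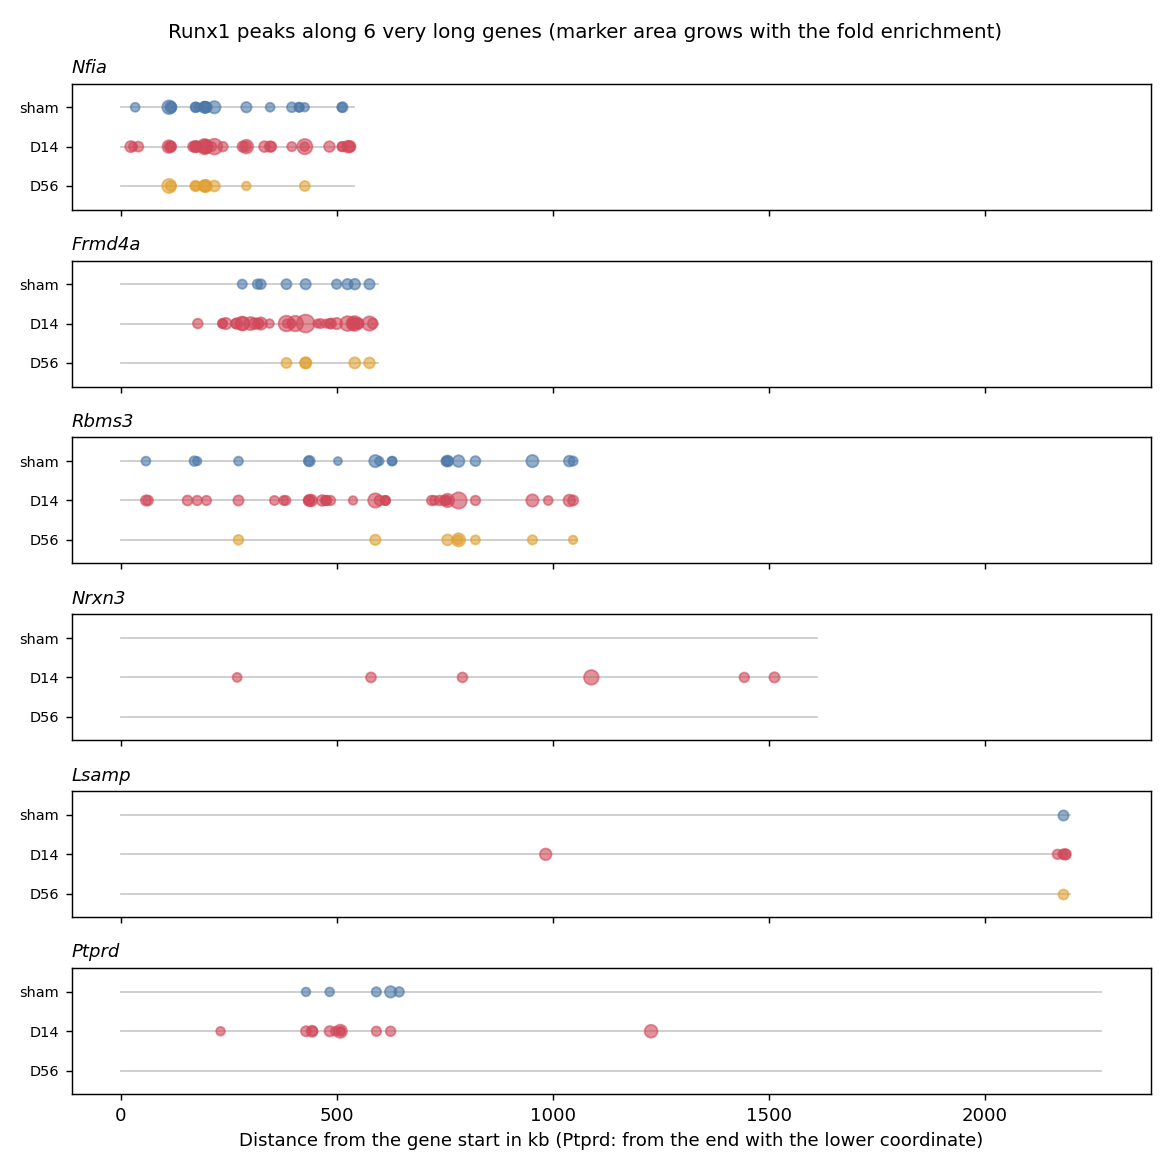
Positions of Runx1 peaks along 6 very long genes as distance in kb from the gene start (for Ptprd from the end with the lower coordinate), with 1 line per library and marker area growing with the fold enrichment of the peak. Nfia and Rbms3 are peopled along their bodies, with 34 and 37 D14 peaks. Frmd4a holds 34 D14 peaks, and its first peak of any library lies at 178.6 kb. Lsamp and Nrxn3 hold 5 and 6 D14 peaks, and Nrxn3 has no peak in the other libraries.

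Sorted by what the genes encode, density differed between groups. The 18 transcription and RNA regulators had 2.07 D14 peaks per 100 kb (1.84 to 2.32) and a median of 1.92 per gene, against 0.913 and a median of 0.563 over all 201. Rad51b, which repairs DNA, stood in that list, and the other 17 genes had 1.88. Of the 18, 17 held a D14 peak, against 174 of the 201. The list also holds Zfhx3 with 5 sham, 19 D14 and 3 D56 peaks, Zbtb20 with 10 sham, 16 D14 and 4 D56 peaks, and the retinoic acid receptor gene Rarb with 3 sham, 13 D14 and 2 D56 peaks. Zfp804b, with no peak in any library, was its exception at D14.

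The 30 genes linked to mesenchymal cells or fibroblasts, each also in another list, had 1.82 D14 peaks per 100 kb (1.65 to 1.99), with a median of 1.55, and every one held a D14 peak, against 86.6% of the 201. At D56 21 of the 30 held one, against 41.3% of the 201, and in sham 23 of the 30, against 55.7%. Among them the receptor-type phosphatase genes Ptprm (3 sham, 18 D14 and 1 D56 peaks) and Ptprg (2 sham, 12 D14 and 1 D56 peaks), the cGMP-dependent kinase Prkg1 (6 sham, 17 D14 and 2 D56 peaks) and the laminin gene Lama2 (3 sham, 8 D14 and 1 D56 peaks) followed the same pattern of few sham, more D14 and fewest D56 peaks. That pattern is also the order of the list lengths. At equal list length by p-value Ptprm kept 2 sham, 3 D14 and 1 D56 peaks. Ptprg kept 1 in each library, Prkg1 kept 2 in each, and Lama2 kept 0 sham, 1 D14 and 1 D56 peaks. The functional lists were drawn up with earlier results of these data known, and this one takes in peak-rich genes such as Frmd4a and Nav2. The order of the lists, and their densities and shares beside all 201, are therefore a description.

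The 29 kinase, phosphatase and signalling genes had 1.38 D14 peaks per 100 kb (1.23 to 1.53). The 14 matrix and cytoskeleton genes had 0.837 (0.686 to 1.01), led by Lpp and by Syne1, a nuclear envelope spectrin-repeat gene with 4 sham, 13 D14 and 2 D56 peaks. The glypican gene Gpc6 held 6 sham, 12 D14 and 1 D56 peaks. The 18 receptors and ion channels averaged 0.681, but their median was 0.120, and 36 of their 100 D14 peaks lay in Cacna1c. Cacna2d3 and Kcnma1, subunits of calcium and potassium channels, followed with 15 and 12 D14 peaks, and 5 of the 18 had no D14 peak.

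At D14 the synaptic and neuronal adhesion lists lay under the average density of very long genes, 0.913 per 100 kb. The 17 synaptic scaffold and vesicle release genes had 0.685 D14 peaks per 100 kb (0.554 to 0.839) and a median of 0.404. In sham they had 0.255 per 100 kb (0.178 to 0.355), against 0.277 over all 201. At D56 they lay above the average, with 0.139 (0.0834 to 0.216), against 0.119. Dlgap1, a postsynaptic scaffold, stood out by its D56 number, with 9 sham, 19 D14 and 8 D56 peaks. The 34 neuronal adhesion and guidance genes had 0.566 (0.489 to 0.652) and a median of 0.348. Nav2 gave 32 of their 193 D14 peaks, and Astn2, Sema6d and Kirrel3 gave 19, 13 and 11. The 9 cadherin, catenin and protocadherin genes had 0.520. The 6 genes in the list of Csmd and Lrp proteins had 0.100 (0.0403 to 0.206), with 7 D14 peaks between them. That list also takes in Malrd1, which is of neither family by name and held 2 of the 7. The 23 genes of human common fragile sites had 0.596 (0.512 to 0.690), with a median gene length of 1223 kb, so this list is also the longest. The 50 genes in no list had 0.981.

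**Figure D4:**
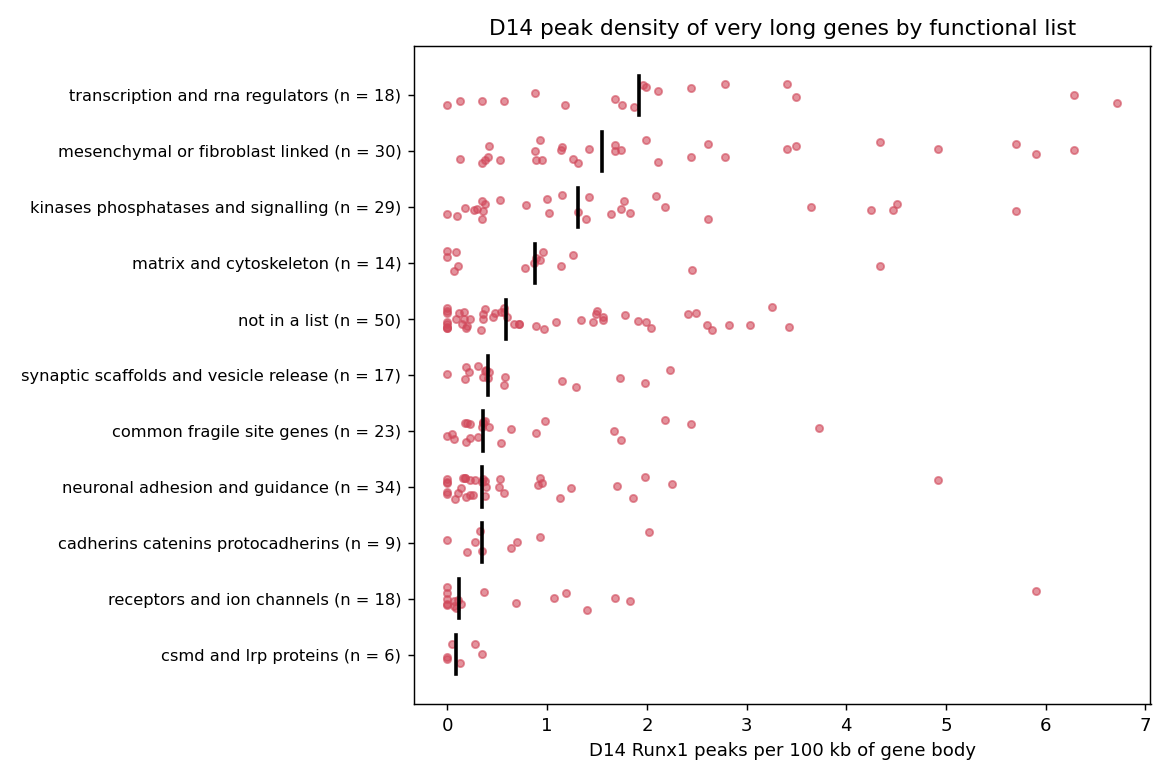
D14 Runx1 peaks per 100 kb of gene body for each very long gene, by functional list, with 1 point per gene and a black bar at the list's median. A gene may stand in several lists. The medians run from 1.92 in transcription and RNA regulators to 0.085 in the list headed Csmd and Lrp proteins, which also holds Malrd1.

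Very long genes held 3.31 times as many peaks at D14 as in sham (2.98 to 3.69). The same ratio was 2.29 (2.24 to 2.34) in genes under 500 kb and 2.25 over all peaks. With gene ends left out the ratio was 3.37 (3.02 to 3.77) in very long genes and 2.94 (2.84 to 3.04) in shorter genes of 20 kb or more. The excess over shorter genes did not hold at equal list length. When each library was limited to its 14704 strongest peaks by p-value, very long genes held 0.980 times as many D14 as sham peaks (0.8001 to 1.20), and by fold enrichment 0.919 times (0.761 to 1.11). In a simulation the pileups of the called peaks were thinned at random to the depth of the D56 input. Peaks weaker by p-value than the weakest D56 peak were then dropped, and no peaks were called anew. The lists stayed unequal, with 42331 D14 and 20720 sham peaks, so this does not match the lists. In them the ratio was 3.02 (2.67 to 3.42), against 2.09 in shorter genes, an excess of 1.44 times (1.28 to 1.63).

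With 0.5 added to each number, 145 of the 201 very long genes (72.1%) had a D14 number at least 2-fold the sham number, against 27.0% of all protein-coding genes. A single one, Cadm2, was at least 2-fold lower, against 2.37%. In 63 of the 145 the sham number was 0, and 21 of those 63 had 1 D14 peak, so that many calls rest on few peaks. Among genes with 5 or more peaks in the pair of libraries, 91 of 110 very long genes (82.7%) were past 2-fold, against 1185 of 2339 shorter genes (50.7%). A 4-fold threshold was passed by 68 of the 201, against 7.94% of all protein-coding genes. At equal list length 28 of the 201 were past 2-fold, against 7.95% of all protein-coding genes, and 48 had more and 33 fewer D14 than sham peaks.

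Single genes stood differently at equal list length by p-value. Frmd4a kept 10 D14 and 6 sham peaks, Cdk14 kept 4 D14 and 0 sham peaks, Nav2 kept 4 D14 and 2 sham peaks and Auts2 kept 5 D14 and 3 sham peaks. Nfia kept 8 D14 and 10 sham peaks, Elmo1 kept 5 D14 and 6 sham peaks and Kalrn kept 3 of each. A further set of dense genes kept fewer D14 than sham peaks, by a wider margin. Rad51b kept 4 D14 and 16 sham peaks, Rbms3 kept 4 D14 and 8 sham peaks and Cacna1c kept 3 D14 and 6 sham peaks. Lpp kept 2 D14 and 6 sham peaks, and Wwox kept 1 D14 and 6 sham peaks. In these last 5 genes the D14 number was higher as deposited and lower among the strongest peaks. Ranked by fold, the direction was the same in each gene named here except Elmo1, with 7 D14 and 5 sham peaks, while Wwox stood at 4 D14 and 6 sham peaks and Kalrn again at 3 of each.

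Of the 63 genes with a D14 peak and no sham peak, 12 held 5 or more. These numbers are not set here beside those of all protein-coding genes. Fat3, a giant protocadherin gene, held 12 D14 peaks and none in sham or at D56. Ptprn2, a phosphatase-like gene of secretory vesicles, held 13 and Clstn2, a calsyntenin gene, held 10, likewise none in the other libraries, and both were chosen after their values were seen. Ctnnd2, a catenin gene, held 6. The highest D14 fold was 7.47 in Fat3, 8.05 in Clstn2 and 11.1 in Ptprn2. Over the 12 genes the 88 D14 peaks had a median fold of 5.11, and 2 reached a fold of 10, the higher at 13.98 in Nrxn3. Among the strongest D14 peaks at equal list length by p-value Ptprn2 kept 1 and Fat3 and Clstn2 kept 0. Ranked by fold, Ptprn2 kept 4 and Fat3 and Clstn2 again kept 0.

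Of the 1518 D14 peaks in very long genes, 410 met a sham peak (27.0%, 24.8 to 29.3), against 40.6% (39.99 to 41.2) in shorter genes and 42.5% outside protein-coding genes. A D56 peak was met by 183 (12.1%, 10.5 to 13.8), against 24.5% and 27.6%. Both gaps were also present at equal list length, where 96 of 195 D14 peaks in very long genes met a sham peak (49.2%, 42.3 to 56.2), against 73.3% in shorter genes, and 106 met a D56 peak (54.4%, 47.4 to 61.2), against 75.1%. D14 peaks in very long genes were also weaker, with a median fold enrichment of 5.09, against 5.68 in shorter genes, and 9.22% reached a fold of 10, against 20.9%. Compared within bands of D14 fold and over 1 kb from any gene end, the shares came close in the middle bands. At a fold of 4 to 6, 18.9% of D14 peaks in very long genes met a sham peak, against 19.9% in shorter genes, and at 6 to 10 it was 41.9%, against 43.6%. They lay apart at both ends of the range, and at a fold under 4 it was 9.91% (7.11 to 13.7), against 15.3% (14.3 to 16.4).

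At a fold of 10 or more and over 1 kb from a gene end, 78 of 117 peaks in very long genes met a sham peak (66.7%, 57.7 to 74.6), against 84.6% (83.2 to 86.0) in shorter genes and 1521 of 1950 (78%, 76.1 to 79.8) outside protein-coding genes. For a D56 overlap the shares were 53.8% (44.8 to 62.6), against 68.6% (66.8 to 70.3) and 62.4% (60.2 to 64.5). The interval in very long genes therefore lay below that of shorter genes in both comparisons. Against peaks outside protein-coding genes it lay below theirs for sham and ran into theirs for D56.

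**Figure D5:**
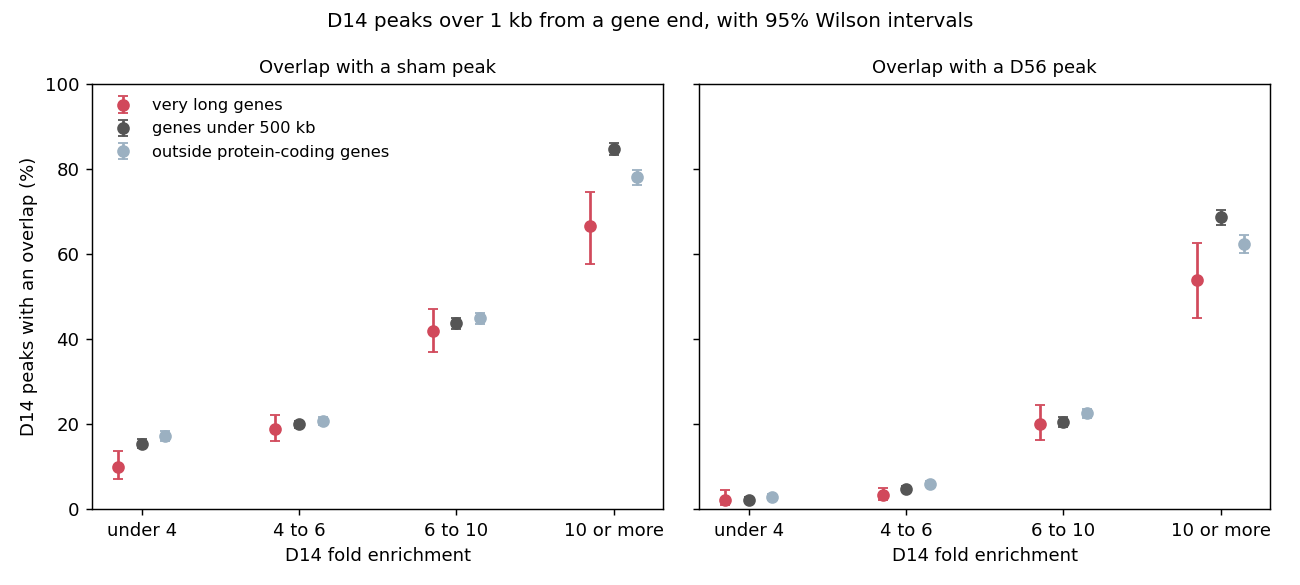
Share of D14 peaks over 1 kb from a gene end that overlap a sham peak (left) or a D56 peak (right), in percent, by band of D14 fold enrichment, for very long genes, genes under 500 kb and the rest of the genome, with 95% Wilson intervals. At a fold of 10 or more 66.7% of peaks in very long genes meet a sham peak, against 84.6% in shorter genes and 78% outside protein-coding genes.

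At any distance from a gene end, 140 D14 peaks in very long genes had a fold of 10 or more. Of these strong peaks 44 had no sham peak (31.4%), against 9.71% in shorter genes and 9.68% outside protein-coding genes. The highest of the 44 lay at chr3:68608743-68609368 with a fold of 16.7. It lay inside Schip1, an ankyrin-binding scaffold gene, and the read-through gene Iqschfp that spans it. The next lay in Frmd4a at chr2:4421781-4422071 with a fold of 16.1, in the calmodulin-binding transcription factor gene Camta1 at chr4:151411655-151412122 with 15.4 and in Dlgap2 at chr8:14651330-14651834 with 15.2. Car10, a carbonic anhydrase-related gene, held a pair, at chr11:93185459-93185886 with 14.1 and at chr11:93531044-93531509 with 14.1. Others stood in Cdk14 (chr5:4825998-4826286, 13.5) and Auts2 (chr5:131600327-131600939, 13.6). All are among the 11 highest by fold and were chosen after their values were seen.

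Other strong D14 peaks were shared by all libraries. Among those of highest fold were peaks of Gmds, an enzyme of GDP-fucose synthesis (36.7), Macrod2, an ADP-ribosyl hydrolase (34.3), and Schip1 with Iqschfp (26.8). Each of these was also called in sham and at D56. The peaks of Gmds and Macrod2 lay within 1 kb of a gene end.

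At D56 the numbers were the lowest. Very long genes held 0.421 times as many peaks at D56 as in sham (0.354 to 0.4997), against 0.573 (0.556 to 0.591) in shorter genes. Set against D14 the ratio was 0.127 (0.109 to 0.148), against 0.250 (0.244 to 0.257). The D56 number was at least 2-fold below the sham number in 60 of the 201 genes (29.9%), against 13.5% of all protein-coding genes, and at least 2-fold above it in 4 (2.62% of all genes). Against D14 it was at least 2-fold lower in 169 (35.5% of all genes) and at least 2-fold higher in 0 (1.52% of all genes). By summit, D56 exceeded sham in 5 genes, namely Macrod2 with 2 peaks, against 1 in sham, and Ptprk, Rims1, Negr1 and Nbea with 1 each, against 0 in sham. Counted by any overlap with the body, Macrod2 held 2 peaks at D56 and 2 in sham and Ptprk 1 at D56 and 1 in sham, so their difference rests on sham summits just outside the body. At equal list length the balance was even, with 35 genes above and 34 below sham.

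D56 peaks in very long genes were mostly ones seen before. Of 193, 188 met a D14 peak and 175 a sham peak (90.7%, 85.7 to 94.0), against 96.5% in shorter genes. D14 peaks that met a sham peak were found at D56 in 168 of 410 cases (41.0%), against 58.3% in shorter genes. The 410 were weaker, with a median D14 fold of 7.08, against 9.45 in shorter genes. This share was not taken within bands of fold. D14 peaks without a sham peak were found at D56 in 15 of 1108 cases (1.35%, 0.822 to 2.22), against 1.40% in shorter genes. Those 15 included the Camta1, Auts2 and Cdk14 peaks given above and the first of the Car10 pair. Their D56 folds were 6.25 in Camta1, 5.17 in Auts2, 4.48 in Cdk14 and 6.72 in Car10. Elmo1 held 2 of the 15, 1 of them 19 bp from an annotated start. The remaining 1093 D14 peaks, 72.0% of all in very long genes, were called at D14 alone. In shorter genes 16061 of 27409 D14 peaks were called at D14 alone, and outside protein-coding genes 14842 of 26188.

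Peaks lay near the ends of very long genes more often than the length of those ends would give. Within 5 kb of an end of the own gene lay 7.61% of sham peaks, 7.51% of D14 peaks (6.30 to 8.93) and 11.8% of D56 peaks (8.07 to 16.99), while these ends are 1.18% of the bodies. In the 158 genes with a strand in the promoter table, the first 10% of the body held 200 of 1264 D14 peaks and the last 10% held 190, while each 10% between held 74 to 141. Peaks within 1 kb of an annotated start made up 29 of the sham, 79 of the D14 and 22 of the D56 peaks. D14 peaks near a start met a D56 peak in 25.3% of cases, against 11.1% for D14 peaks elsewhere in these genes. Those near a start had a median fold of 6.95, against 5.06 elsewhere. Within bands of fold the higher share was seen at a fold of 10 or more, in 17 of 23 (73.9%, 53.5 to 87.5), against 50 of 92 (54.3%, 44.2 to 64.1), with intervals that meet. At 6 to 10 it was 3 of 26 (11.5%), against 61 of 295 (20.7%), and none of the 16 near a start at 4 to 6 or of the 14 under 4 met one. The D56 number was 0.759 times the sham number near starts and 0.399 times elsewhere.

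Promoter windows of very long genes were met less often than those of other genes. A promoter window ran from 250 bases before to 50 bases after an annotated start, and the 158 genes had 246 of them. A peak met 42 in sham (17.1%), 79 at D14 (32.1%, 26.6 to 38.2) and 34 at D56 (13.8%), against 44.8%, 54.99% and 38.7% of 19808 windows of other protein-coding genes. Counted by gene, 39 of the 158 had a window met in sham, 72 at D14 and 31 at D56. These counts by gene are not set here beside those of other genes. The base composition of the 250 bases before the start was close, with a median GC content of 56.4%, against 56%. Among windows with a GC content over 60%, a D14 peak met 52 of 96 (54.2%, 44.2 to 63.8), against 85.3% (84.5 to 86.1) of 7211 windows of other genes. Among the rest it met 27 of 150 (18%, 12.7 to 24.9), against 37.6% (36.8 to 38.5). Over 60% GC the share met was 28.1% at D56, against 63.7% of other genes, and 30.2% in sham, against 71.1%. The bound of 60% was set after the composition had been seen.

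The windows that were met differed among themselves. The 30 met in all 3 libraries had a median GC content of 68.4% and the 33 met at D14 alone 63.6%, against 52.4% in the 167 met in none. Windows of other protein-coding genes had the same order, with medians of 62.4%, 60.4% and 48.4%. Windows met in all 3 libraries were 12.2% of those of very long genes, against 38.1% in other genes. Windows met at D14 alone were 13.4%, against 9.87%. The 5 promoters met in all libraries and with the highest D14 folds were those of Gmds, Macrod2, Ptprk, Atrnl1 and Sugct, with GC contents of 78.4%, 76.4%, 79.2%, 76.4% and 74.0%. In Ptprk, Atrnl1 and Sugct the D14 summit at the window lay outside the body, so it is not in their peak numbers. Their D14 folds there were 30.1, 25.8 and 24.9, against at most 7.49, 7.35 and 5.11 for summits in the body. Among windows met at D14 alone the highest D14 folds were at Frmd4a, Nrxn3 and Gpc5, with GC contents of 56%, 60% and 51.2%. At Frmd4a the D14 peak also overlapped sham and D56 peaks that stop short of the window, which was so for 1 of the 33, and its sequence is not shown. Some of these windows are printed as examples picked by D14 fold, and their GC contents lie farther apart than the medians. Of the 33 windows met at D14 alone, 19 had a GC content over 60%. The sequences are the 250 bases before the start, 5′ to 3′ on the gene's strand, from RefSeq on GRCm38.p6. Capitals mark a Runx1 core, TGTGGT or TGCGGT, on either strand.
Gmds (chr13:32338545-32338794, minus strand): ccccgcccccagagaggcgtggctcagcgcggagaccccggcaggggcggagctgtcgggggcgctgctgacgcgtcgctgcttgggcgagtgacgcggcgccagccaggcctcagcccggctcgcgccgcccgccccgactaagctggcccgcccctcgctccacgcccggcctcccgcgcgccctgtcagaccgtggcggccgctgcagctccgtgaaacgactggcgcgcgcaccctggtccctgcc
Macrod2 (chr2:140395180-140395429, plus strand): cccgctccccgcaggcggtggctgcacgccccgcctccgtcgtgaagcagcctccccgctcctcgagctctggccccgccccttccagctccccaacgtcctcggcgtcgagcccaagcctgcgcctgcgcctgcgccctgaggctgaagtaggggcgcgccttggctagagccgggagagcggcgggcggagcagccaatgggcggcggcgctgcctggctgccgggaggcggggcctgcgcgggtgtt
Atrnl1 (chr19:57610784-57611033, plus strand): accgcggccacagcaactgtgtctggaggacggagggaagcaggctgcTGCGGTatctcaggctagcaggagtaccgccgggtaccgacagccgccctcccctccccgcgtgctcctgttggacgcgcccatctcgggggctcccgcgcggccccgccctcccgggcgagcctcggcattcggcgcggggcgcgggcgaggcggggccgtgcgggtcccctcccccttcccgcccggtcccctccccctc
Nrxn3 (chr12:89812233-89812482, plus strand): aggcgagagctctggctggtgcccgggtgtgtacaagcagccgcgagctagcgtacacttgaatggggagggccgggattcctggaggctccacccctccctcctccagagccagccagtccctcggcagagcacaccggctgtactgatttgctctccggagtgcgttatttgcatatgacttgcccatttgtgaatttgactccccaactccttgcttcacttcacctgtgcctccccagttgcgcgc
Gpc5 (chr14:115091965-115092214, plus strand): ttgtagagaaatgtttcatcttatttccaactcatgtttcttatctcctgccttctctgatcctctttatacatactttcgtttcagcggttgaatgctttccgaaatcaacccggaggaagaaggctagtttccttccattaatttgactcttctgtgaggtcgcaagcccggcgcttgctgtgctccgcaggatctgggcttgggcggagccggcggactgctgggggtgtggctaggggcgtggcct

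The peaks at the first 3 windows had D14 folds of 36.7 in Gmds, 34.3 in Macrod2 and 25.8 in Atrnl1, an attractin-like gene. The same windows had folds of 12.2, 18.8 and 13.0 at D56 and of 10.4, 15.4 and 11.3 in sham, and each library's folds have their own scale. The windows of Frmd4a, Nrxn3 and the glypican gene Gpc5 had D14 folds of 16.4, 14.0 and 13.5. Of the 5 sequences, Atrnl1 holds a core, TGCGGT, and the others hold none in these letters. A core stood in 43 of the 246 windows of very long genes (17.5%), against 18.6% of all 31396 windows of the table on chromosomes 1 to 19. TGTGGT stood in 10.6%, against 14.0%, and TGCGGT in 7.32%, against 5.11%. A core stood in 13 of the 79 windows met by a D14 peak (16.5%) and in 30 of the 167 not met (17.96%). The share of windows with a core was thus close in met and unmet windows.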

How the data were processed

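Runx1 ChIP and input libraries of sham, D14 and D56 fibroblasts were made by the authors, and the 3 deposited peak lists were analysed. The submitters' processing notes name BWA, SAMtools, MACS2 and the mouse build mm10. MACS 2.0.10.20120913 called the peaks of each ChIP library over the matching input at a q-value of 0.01, per the file headers. The sources used here do not give alignment settings. Each deposited peak carries a pileup (a coverage signal after scaling of ChIP to input) and −log10 values of its p-value and q-value. It also carries a fold, the authors' ratio of pileup to local background. These values were made by the authors for each library alone and served only to order, select and describe the peaks of that library.

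Gene bodies and starts came from RefSeq tables on GRCm38.p6, the assembly named mm10, without exons, so introns and exons were not told apart. Strand was known for 158 of the 201 genes. A peak belonged to a gene when its summit lay in the body, counted once for densities summed over the covered length and once per gene for single genes. Poisson, Wilson and ratio intervals came from scipy 1.17.1 and statsmodels 0.14.6 (Python 3.11.15). Overlap meant 1 bp or more. Counting and overlap steps were tested on simulated peaks. Alternatives were other thresholds, list lengths, depths, gene lengths, ends and ways of placing peaks. With 1 library per condition no test between conditions was possible.

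The very long genes and the 10 functional lists were chosen with earlier results of these data known. Genes were named by a rule: the 10 highest D14 densities, the 5 highest sham and D56 densities, the largest differences, the 10 longest, the 5 longest without a peak, up to 4 per list, the neighbours of the length threshold and the 5 highest D14 folds, passing over unnamed models. A result that this rule names is not reported here. Zfhx3, Zbtb20, Rarb, Zfp804b, Ptprm, Prkg1, Camta1, Car10, Ptprn2, Clstn2, Ptprk, Rims1, Negr1, Nbea, Ryr2, Atrnl1, Sugct and Gpc5 stand outside it, chosen after their values were seen or for their promoter peak.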

Additional observations from a re-analysis of the deposited data

How the results depend on the processing

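Density was lower in very long than in shorter genes under all 13 alternatives run for it. In the order sham, D14, D56 the ratio was 0.308, 0.352 and 0.295 with 10 kb at gene ends left out, 0.160, 0.249 and 0.111 with 10 kb added on either side, 0.139, 0.229 and 0.0915 for any overlap, and 0.218, 0.294 and 0.164 for whole peaks inside. It was 0.228, 0.316 and 0.165 at a threshold of 400 kb, 0.138, 0.193 and 0.103 at 750 kb, and 0.149, 0.238 and 0.111 without the 5 genes with most D14 peaks (Rad51b, Rbms3, Cacna1c, Frmd4a, Nfia). With the excluded families put back it was 0.290 at D14 and 0.206 in sham, with peaks under 500 bp apart merged 0.281 at D14, and at a −log10 q of 5 or more 0.115 at D56. At equal list length it was 0.129 at D14 and 0.137 in sham by p-value, and 0.143 and 0.163 by fold.

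The D14 to sham ratio fell below 1 at equal list length, to 0.980 by p-value and 0.919 by fold, and relative to the ratio in shorter genes it was 0.940 and 0.877. That relative ratio was 1.14 with gene ends left out, against 1.45 as deposited. At equal list length by p-value 93 genes held a D14 peak and 28 were past 2-fold. A 4-fold threshold on the deposited lists was passed by 68. The share of D14 peaks with a sham overlap was 49.2% by p-value and 47.0% by fold at equal length, 21.5% at a reciprocal overlap of 50%, and 24.6% without the 5 genes. With a D56 overlap it was 54.4% and 48.8% at equal length, 7.77% at the reciprocal overlap and 10.3% at a −log10 q of 5 or more. The cause of these shifts was not tested, beyond the shorter lists that equal length makes.

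No paired analysis was possible because each condition had 1 ChIP library and no values come from a test. Depth sets what can be called: a gene without a peak was not called at this depth, and the D56 list rests on the shallowest input. The condition and the library cannot be told apart.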

Other observations

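Peaks in very long genes stood farther apart than elsewhere. At D14 53.7% of their peaks had another D14 peak within 10 kb, against 70.0% of peaks in shorter genes and 64.5% outside protein-coding genes, and the median gap to the nearest neighbour was 8.59 kb, against 3.99 kb and 5.23 kb. In sham the share was 37.1%, against 54.2% and 48.5%, and at D56 25.4%, against 39.4% and 32.5%.

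The 15 genes of 500 kb or more that the rule left out were fuller. Their density was 0.797 peaks per 100 kb in sham, 2.23 at D14 (1.97 to 2.52) and 0.186 at D56. In the 201 very long genes it was 0.272, 0.902 and 0.115. Where each chromosome is taken apart, chromosomes 8 and 14 held the most D14 peaks in very long genes, with 152 in 17 genes and 132 in 14 genes, and chromosome 15 the fewest, with 31 in 7.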
